A study of Mus musculus with 84 samples.

Results

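The comparison set out here is the dose difference of the S compound in inguinal adipose tissue (IAT): 280 µmol/kg against 28 µmol/kg, with 6 mice at each dose. These 12 samples were chosen by their labels from the 84 of the series. Both groups were db/db mice (strain BKS Cg-m+/+ Leprdb/J), which carry a defect in the leptin receptor and become obese and diabetic, and both were dosed by mouth for 18 days. The S compound is known from the labels by this code alone. The study's methods describe male mice that entered as young adults for the rosiglitazone (RSG) groups and do not describe the S groups. Every mouse was set against the same pool of IAT RNA from 6 untreated db/db mice on a pair of 2-colour arrays with exchanged dyes, so a value below is the log2 ratio of a treated mouse to that pool, and the pool cancels in the difference between the doses. Another group of 6 mice at 84 µmol/kg and the RSG mice at the same molar doses are used only where named.

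White adipose tissue stores fatty acids as triglyceride in lipid droplets and releases them by lipolysis. The nuclear receptor PPARγ, the target of RSG, binds DNA with an RXR partner and turns on genes of lipid uptake, storage and adipocyte identity, while PPARα, which shares many of its sites, is better known for genes of fatty acid oxidation. Inguinal fat can also take on features of brown fat: its cells then gain mitochondria and the uncoupling protein Ucp1, which lets the respiratory chain release its energy as heat.

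Of 29153 sequences (probes) measured in either group, 13744 (47.1%) differed between the doses at an adjusted p under 0.05 (limma, Benjamini-Hochberg over all sequences), 8413 higher at 280 µmol/kg (28.9%) and 5331 lower (18.3%). Counted once per gene, by its brightest probe, 8068 of 15772 genes (51.2%) differed, 4585 higher (29.1%) and 3483 lower (22.1%). These shares are the background for every count of genes below, since so many genes pass the test. The median difference over all genes was 0.03 on the log2 scale. A difference of at least 2-fold was less common: 171 genes were higher by that much (1.08%) and 294 lower (1.86%). At the thresholds the study used (p under 0.001 before adjustment, fold of 1.3 or more), 2996 sequences were higher (10.3%) and 1899 lower (6.51%). In 2878 genes (18.2%) every mouse at 280 µmol/kg lay above every mouse at 28 µmol/kg, and in 1973 genes (12.5%) every one lay below. Without replicate 3 at 280 µmol/kg, which stands apart, 14271 sequences differed (49%), and 13032 (44.7%) were called in the same direction with and without it.

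That mouse is visible over all sequences. Its profile correlated with the other mice at 280 µmol/kg at a median of 0.692, the lowest of its group (highest 0.886), and with replicate 5 at 28 µmol/kg at 0.819. At 28 µmol/kg the medians ran between 0.550, in replicate 4, and 0.815. Between 67.3 and 72.0% of probes stood well above background in the channel of the treated mouse at 280 µmol/kg, and between 63.5 and 69.2% at 28 µmol/kg, and the median signal over background was 2.59 to 3.1 at 280 µmol/kg and 3.23 to 3.96 at 28 µmol/kg. The arrays of a dye-swap pair correlated at 0.937 to 0.954 at 280 µmol/kg and at 0.851 to 0.906 at 28 µmol/kg. No slide and no scan day held mice of both doses, so slide, scan day and dose cannot be told apart. The part of these differences in the results was not tested.

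Among the genes with the largest differences, the one highest at 280 µmol/kg was Sptlc3, a subunit of serine palmitoyltransferase, the enzyme that opens sphingolipid synthesis. Its log2 ratio to the pool ran between 4.52 and 5.00 at 280 µmol/kg (median 4.66) and between 1.18 and 2.08 at 28 µmol/kg (median 1.58), an 8.44-fold difference (log2 3.08, 95% interval 2.72 to 3.43, adjusted p 2.49e-07, limma). Every mouse at the higher dose lay far above the highest mouse at the lower one. Cidea, a lipid droplet protein of brown fat that fuses droplets, ran between 3.17 and 4.17 at 280 µmol/kg (median 3.57) and between -0.11 and 1.98 at 28 µmol/kg (median 0.39), a difference of 3.06 (2.38 to 3.75). Replicate 5 carried the 1.98, far above the other mice at 28 µmol/kg, and the groups still did not overlap. Ucp1 itself ran between 3.13 and 3.74 at 280 µmol/kg (median 3.32) and between 1.02 and 1.65 at 28 µmol/kg (median 1.19), a difference of 2.13 (1.88 to 2.39, adjusted p 2.68e-07). Both doses were thus above the untreated pool for Ucp1, and 280 µmol/kg was 4.39-fold above 28 µmol/kg.

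**Figure D1:**
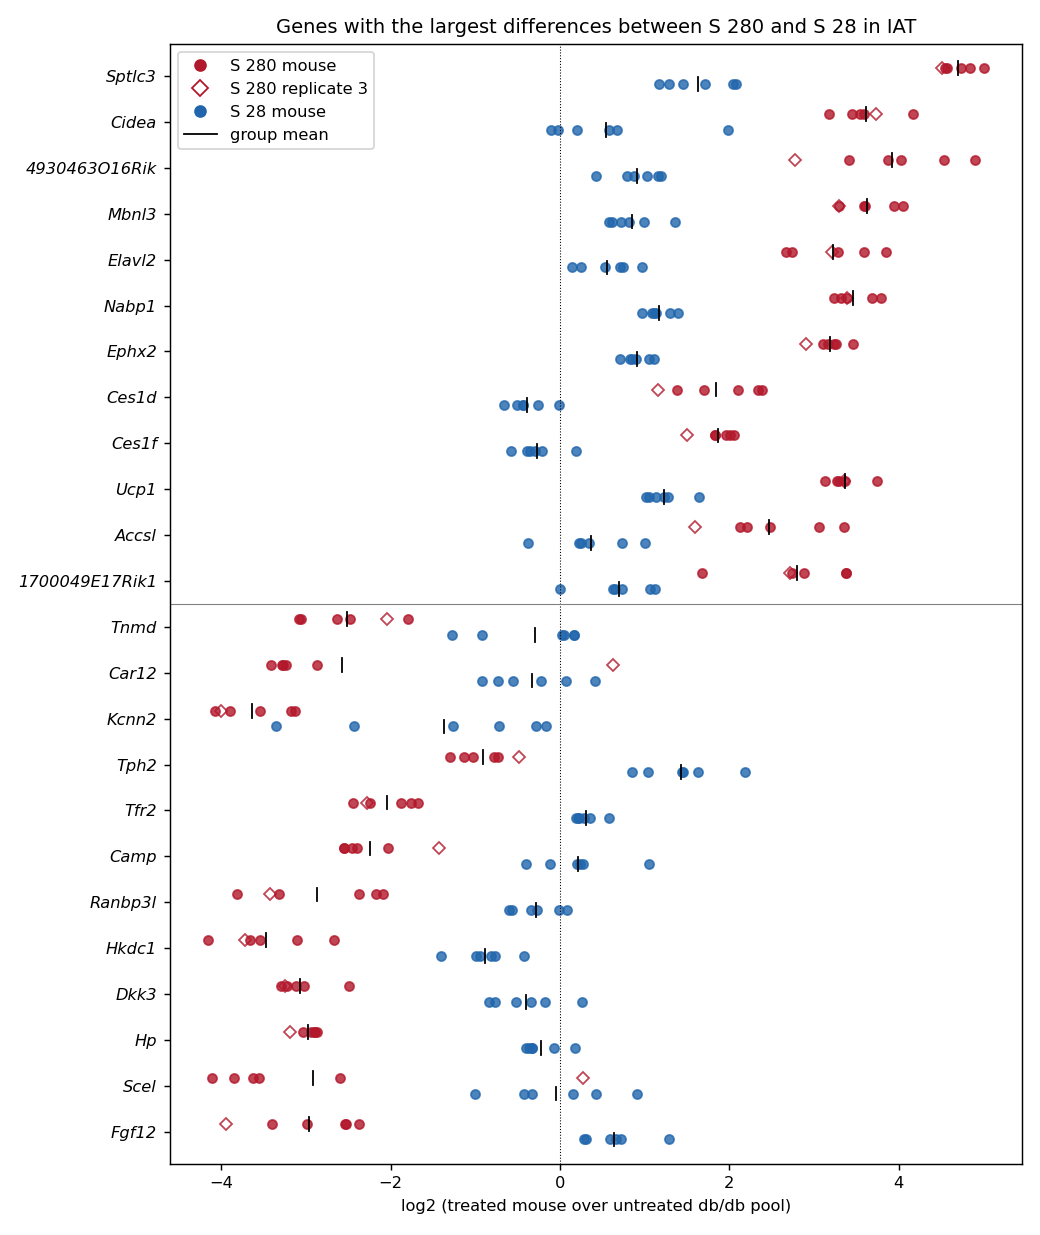
The 12 genes highest and the 12 lowest at 280 µmol/kg by the naming rule: each point is 1 mouse, on the x axis as the log2 ratio of the treated mouse to the untreated pool, with S 280 in red above S 28 in blue for each gene (n = 6 each). For Sptlc3 the red points sit between 4.52 and 5.00 and the blue between 1.18 and 2.08. Scel has 1 red point among the blue ones, and Car12 has 1 red point above them.

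Ephx2, the soluble epoxide hydrolase that turns fatty acid epoxides into diols, ran between 2.90 and 3.45 at 280 µmol/kg (median 3.20) and between 0.71 and 1.11 at 28 µmol/kg (median 0.87). Its difference of 2.28 (2.08 to 2.48) had one of the narrowest intervals of these genes. The carboxylesterases Ces1d and Ces1f, which hydrolyse esters including stored lipid, were below the pool or near it at the lower dose: Ces1d ran between 1.16 and 2.39 at 280 µmol/kg and between -0.66 and -0.01 at 28 µmol/kg. Ces1f ran between 1.5 and 2.05 at 280 µmol/kg and between -0.58 and 0.19 at 28 µmol/kg. The RNA-binding proteins Mbnl3, with a difference of 2.78 (2.43 to 3.14), and Elavl2, with 2.67 (2.21 to 3.13), and the single-stranded DNA-binding protein Nabp1, with 2.30 (2.07 to 2.53), completed the named proteins with clear signal at the higher dose. Elavl2 was well above background on 12 of 12 arrays at 280 µmol/kg and on 2 of 12 at 28 µmol/kg. The same held for 4930463O16Rik (12 and 1 of 12) and Accsl (12 and 1 of 12), whose differences were 3.01 (2.34 to 3.68) and 2.10 (1.45 to 2.76). 1700049E17Rik1 was well above background on 10 arrays at 280 µmol/kg and on none at 28 µmol/kg, so it was at least 1.41-fold higher, the level of the dim group being set to the lowest signal that stood above background. The size of such differences depended on the processing of the signals. In 1 alternative, called normexp background correction here and below, an offset of 50 was added to every signal and the dye correction was redone by loess. The shares of these steps were not tested apart. With it 4930463O16Rik differed by 0.98, Accsl by 0.64 and Elavl2 by 1.26, and the call of 1700049E17Rik1 was lost (limma, adjusted p 0.0742).

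In the other direction, Fgf12, an intracellular member of the fibroblast growth factor family that acts on sodium channels, had the largest measured difference. It ran between -3.94 and -2.37 at 280 µmol/kg (median -2.76) and between 0.28 and 1.29 at 28 µmol/kg (median 0.63), a difference of -3.60 (-4.19 to -3.02), and stood above background on 2 of 12 arrays at the higher dose. With normexp background correction its difference was -1.16. The acute-phase protein haptoglobin (Hp), which fat secretes, ran between -3.19 and -2.87 at 280 µmol/kg (median -2.93) and between -0.40 and 0.17 at 28 µmol/kg (median -0.33), with no overlap (adjusted p 1.01e-07). The channel of the treated mouse was saturated for Hp on none of 12 arrays at 280 µmol/kg and on 6 of 12 at 28 µmol/kg, and the measured difference was -2.75 (-2.97 to -2.54). Dkk3, of the Dickkopf family of secreted proteins, ran between -3.30 and -2.49 at 280 µmol/kg and between -0.84 and 0.27 at 28 µmol/kg.

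Tfr2, a transferrin receptor of iron sensing, differed by -2.35 (-2.64 to -2.07), and Tph2, a tryptophan hydroxylase of serotonin synthesis, by -2.34 (-2.80 to -1.88). Tph2 crossed the level of the pool: it ran between -1.29 and -0.48 at 280 µmol/kg and between 0.85 and 2.19 at 28 µmol/kg. Hkdc1 (a hexokinase-like protein), Ranbp3l (a Ran-binding protein) and Camp (the antimicrobial cathelicidin) fell by 2.59, 2.58 and 2.44, and stood above background on 1, 5 and 4 of 12 arrays at 280 µmol/kg against all 12 at 28 µmol/kg. Kcnn2, a calcium-activated potassium channel, and Tnmd, tenomodulin, were above background on no array at 280 µmol/kg and on 7 and 6 of 12 at 28 µmol/kg. They were at least 1.71-fold and at least 1.81-fold lower. With normexp background correction the differences of Hkdc1, Ranbp3l and Camp were -0.51, -0.84 and -0.77, and the call of Kcnn2 was lost (adjusted p 0.201).

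Scel and Car12 belong to the 12 lowest genes but do not separate the doses. Scel, sciellin of the cornified envelope of skin, ran between -4.11 and 0.27 at 280 µmol/kg (median -3.59) and between -1.0 and 0.91 at 28 µmol/kg (median -0.09). Car12, a membrane carbonic anhydrase, ran between -3.42 and 0.62 at 280 µmol/kg (median -3.25) and between -0.92 and 0.42 at 28 µmol/kg (median -0.39). The high value in both was replicate 3, and the differences of -2.87 for Scel and -2.25 for Car12 became -3.50 and -2.89 without it, and were -0.76 and -0.98 with normexp background correction. Replicate 3 lay within the range of the S 28 mice in Scel and above that range in Car12. Among the other genes of the plot only Kcnn2 had an S 280 mouse within the range of the S 28 mice.

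The promoters of the highest genes were searched for the short site that nuclear receptors such as PPAR bind, AGGTCA, and for its direct repeat with 1 base between, AGGTCANAGGTCA, on both strands in 300 bases (250 before to 50 after the start site) from RefSeq on GRCm38.p6. Sptlc3 and Ucp1 are shown because they are a highest gene without and with that site. The capitals mark that site.
Ucp1, chr8:83290098-83290397, + strand: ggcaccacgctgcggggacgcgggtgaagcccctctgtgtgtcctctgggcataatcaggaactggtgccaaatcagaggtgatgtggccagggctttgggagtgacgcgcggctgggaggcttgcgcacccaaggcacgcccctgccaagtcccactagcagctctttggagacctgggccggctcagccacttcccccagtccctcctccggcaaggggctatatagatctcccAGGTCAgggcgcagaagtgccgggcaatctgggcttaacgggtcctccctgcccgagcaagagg
Sptlc3, chr2:139493663-139493962, + strand: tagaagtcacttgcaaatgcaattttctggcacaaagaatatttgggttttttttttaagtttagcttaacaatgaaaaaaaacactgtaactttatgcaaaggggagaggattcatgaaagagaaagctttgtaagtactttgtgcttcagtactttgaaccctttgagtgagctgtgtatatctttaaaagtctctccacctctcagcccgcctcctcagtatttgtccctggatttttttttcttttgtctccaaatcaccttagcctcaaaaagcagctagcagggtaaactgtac
Of 8 highest genes whose promoter was found, 1 held the site (12.5%, Ucp1), and of 9 lowest 1 held it (11.1%, Fgf12), against 4900 of 27025 genes (18.1%). In Ucp1 it lies 14 bases before the start site. The repeat was in none of these 17 promoters and in 13 of all 27025 (0.0481%), and with any base at the T (AGGNCANAGGNCA) in none of the 17 and in 122 (0.451%).

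Pparg did not differ measurably between the doses. It ran between -0.06 and 0.35 at 280 µmol/kg (median 0.12) and between -0.04 and 0.40 at 28 µmol/kg (median 0.17), a difference of -0.06 with an interval of -0.26 to 0.15 (adjusted p 0.659). Of 20 receptors and partners measured, 13 rose and 1 fell (65% rose, against 29.1% of all genes), with a median difference of 0.28. The coactivator Ppargc1a, which drives mitochondrial biogenesis, ran between 0.19 and 0.94 at 280 µmol/kg and between -1.15 and -0.07 at 28 µmol/kg, a difference of 1.16 (0.74 to 1.58). Its relative Ppargc1b rose by 1.15 and Ppara, the receptor of fatty acid oxidation, by 1.09, both chosen after their values were seen. The estrogen-related receptor Esrra, a partner of these coactivators, rose by 0.76 (0.64 to 0.88).

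Most genes of fatty acid oxidation rose. Of 22 measured genes of mitochondrial β-oxidation 21 rose and none fell, with a median difference of 0.82. Cpt1b, which carries fatty acids into mitochondria and is the muscle and brown fat form, ran between 1.38 and 2.33 at 280 µmol/kg (median 1.70) and between -0.57 and 0.32 at 28 µmol/kg (median -0.11), a difference of 1.87 (1.51 to 2.23). Acadvl, the dehydrogenase for very long chains, differed by 1.25 (1.06 to 1.44), and Etfb, which takes electrons from these dehydrogenases, by 0.99 (0.85 to 1.12). In the mean of the 22 genes per mouse, the mice at 280 µmol/kg lay between 0.87 and 1.32 and those at 28 µmol/kg between 0.17 and 0.32. Of 24 genes of peroxisomal and omega oxidation 15 rose and none fell (median 0.47). The bifunctional enzyme Ehhadh of peroxisomal oxidation differed by 1.53 (1.33 to 1.74).

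**Figure D2:**
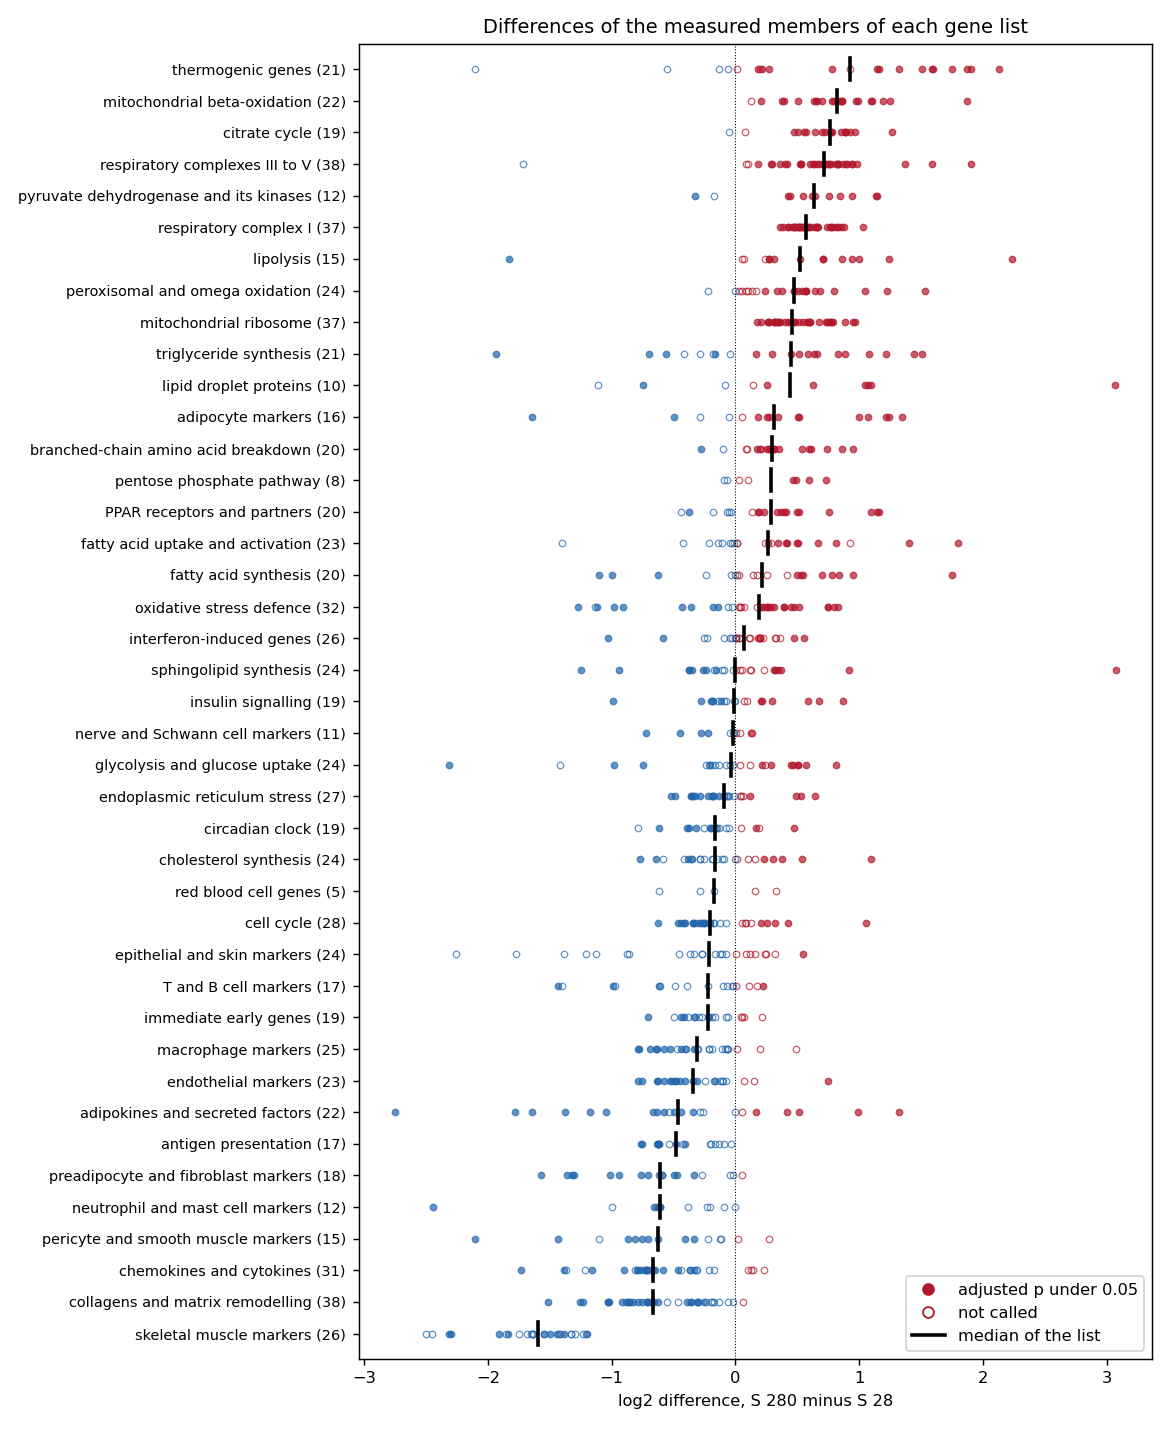
Difference between the doses for every measured gene of the gene lists: each point is 1 gene, the x axis is the log2 difference S 280 minus S 28, filled points passed the test and the bar is the median of the list. All 37 genes of respiratory complex I lie to the right of 0, with a median of 0.57, and the collagen and matrix list has a median of -0.67.

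Downstream of β-oxidation, 17 of 19 citrate cycle genes rose and none fell (median 0.76), as did 37 of 37 subunits of respiratory complex I (median 0.57), 35 of 38 of complexes III to V (median 0.71) and 37 of 37 proteins of the mitochondrial ribosome (median 0.46). Citrate synthase (Cs), often used as a measure of mitochondrial content, differed by 0.55 (0.41 to 0.70), and Idh3a, a subunit of the NAD-dependent isocitrate dehydrogenase, by 0.96 (0.82 to 1.10). Cycs, cytochrome c, ran between 1.70 and 2.31 at 280 µmol/kg and between 0.56 and 0.74 at 28 µmol/kg, a difference of 1.37 (1.18 to 1.55). Ndufb5 of complex I differed by 0.82 (0.70 to 0.94) and Mrps5 of the small mitochondrial ribosomal subunit by 0.73 (0.64 to 0.82). No S 280 mouse overlapped an S 28 mouse in 36 of the 37 complex I genes and 35 of the 37 mitochondrial ribosome genes, where 18.2% of all genes separate in this direction. Among the cytochrome oxidase subunits, Cox7a1, the form of heart, muscle and brown fat, differed by 1.59 but varied more: it ran between 0.63 and 1.51 at 280 µmol/kg and between -1.51 and 0.42 at 28 µmol/kg. Of the same list Cox6a2, also a muscle form, had a difference of -1.72 that did not pass the test, chosen after its value was seen.

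The thermogenic list, genes known from brown and beige fat, had 14 of 21 members higher and none lower (median 0.93, and 1.15 without replicate 3). Elovl3, a fatty acid elongase induced in cold-exposed brown fat, ran between 3.14 and 3.43 at 280 µmol/kg (median 3.23) and between 1.17 and 1.71 at 28 µmol/kg (median 1.54), a difference of 1.75 (1.55 to 1.94). Glycerol kinase (Gk), which lets fat cells reuse the glycerol of lipolysis, ran between 2.08 and 2.88 at 280 µmol/kg and between 0.74 and 0.97 at 28 µmol/kg. Not every marker moved alike: Prdm16, a regulator of the brown fat programme, rose by 0.18, and Ckmt2, a mitochondrial creatine kinase also found in muscle, had a difference of -2.11 that did not pass, both chosen after their values were seen. In the mean over the list the mice lay between 0.66 and 1.01 at 280 µmol/kg and between -0.17 and 0.35 at 28 µmol/kg.

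**Figure D3:**
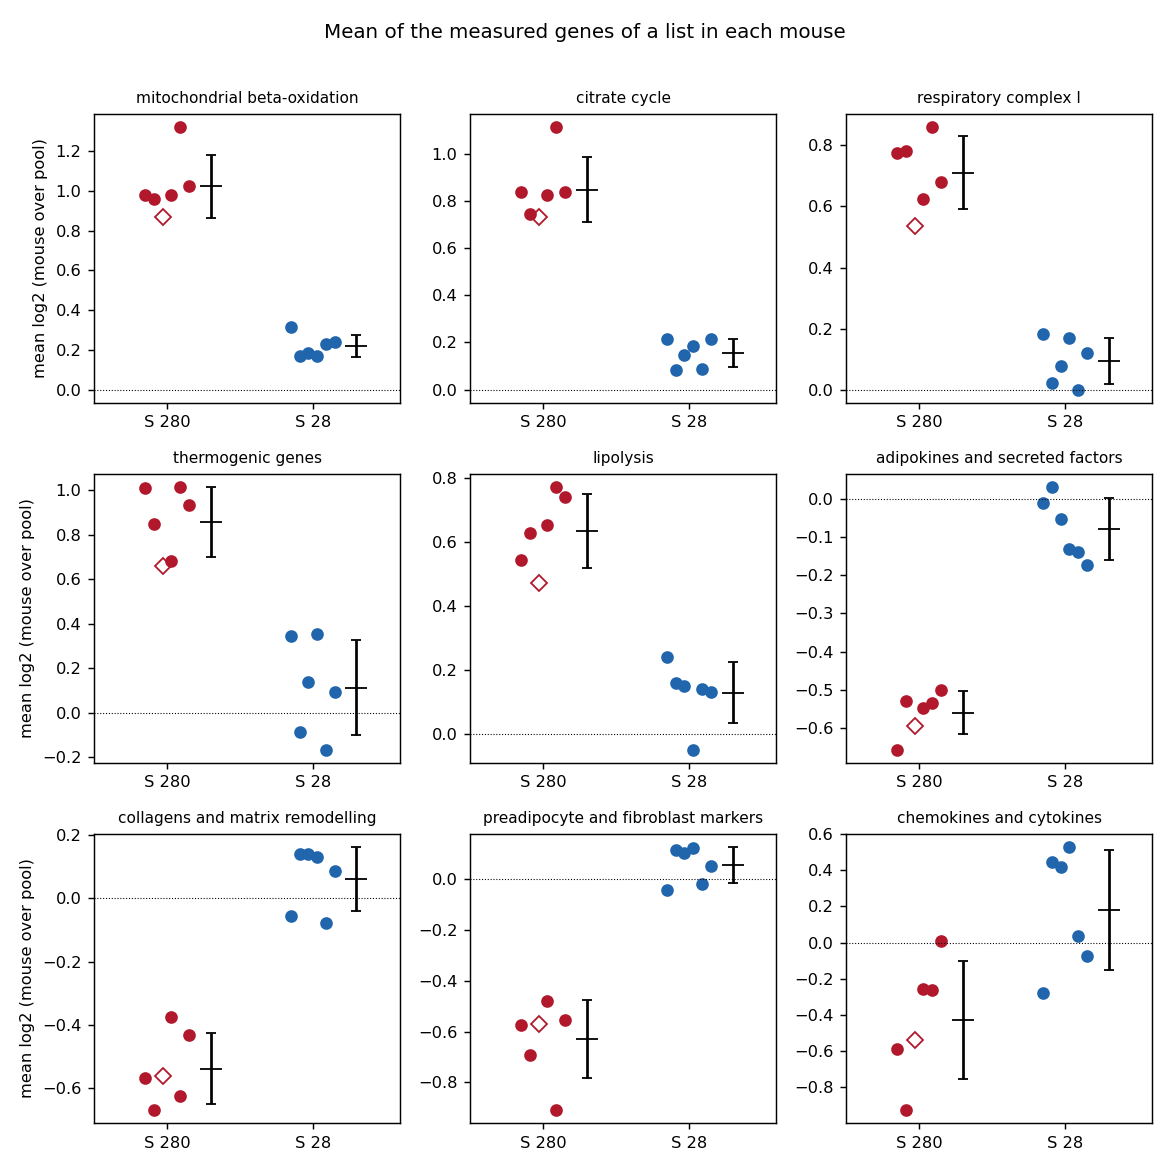
Mean log2 ratio to the pool over the genes of a list, 1 point per mouse, with S 280 in red left of S 28 in blue (n = 6 each) and S 280 replicate 3 drawn as an open diamond; bars are the mean ± SD of the 6 mice. For β-oxidation the mice at 280 µmol/kg lie between 0.87 and 1.32 and those at 28 µmol/kg between 0.17 and 0.32, and replicate 3 has the 0.87.

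Most genes of pyruvate dehydrogenase and its kinases rose as well, 10 of 12, and 1 fell (median 0.63). Pdhx, a structural component of the complex, differed by 0.75 (0.63 to 0.87). Pdk4, the kinase that switches the complex off when fat is burned, ran between -0.72 and 1.34 at 280 µmol/kg (median -0.27) and between -1.99 and -0.42 at 28 µmol/kg (median -1.30). Most mice of both doses were below the pool for Pdk4, the groups overlapped, and the difference of 1.14 (0.38 to 1.90) had an adjusted p of 0.0183, and of 0.0756 with slide as a random block. The 1 member that fell was Pdk3, by 0.33, and its sign turned under quantile normalization between mice (0.04). In the breakdown of branched-chain amino acids 15 of 20 genes rose and 1 fell (median 0.29), with Hibch, a hydrolase of valine breakdown, at 0.86 (0.71 to 1.02) and Ivd, the dehydrogenase of leucine breakdown, at -0.28 (-0.35 to -0.21), a call that was lost under the same normalization (-0.09).

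Genes of fat storage and release rose as well, with more exceptions. Of 21 genes of triglyceride synthesis 13 rose and 4 fell (median 0.45). Gpd1, which makes the glycerol backbone, differed by 1.08 (0.94 to 1.22), with its spot saturated on some arrays of both doses, and Mogat2, an acyltransferase that builds diacylglycerol, ran between -2.18 and -0.91 at 280 µmol/kg and between 0.20 and 0.73 at 28 µmol/kg. Of 15 genes of lipolysis 11 rose and 1 fell (median 0.52). Abhd5, the activator of the adipose triglyceride lipase, differed by 0.94 (0.79 to 1.10), while Hilpda, an inhibitor of that lipase, ran between -1.98 and -0.91 at 280 µmol/kg and between -0.26 and 0.50 at 28 µmol/kg. Of 10 lipid droplet proteins 6 rose and 1 fell (median 0.44). Plin2, a coat protein of droplets, differed by 1.09 (0.98 to 1.2), Cidec, which enlarges droplets, by 1.07 (0.93 to 1.21), with its spot saturated on 6 of 12 arrays of each dose, and Plin1, the main coat of the adipocyte droplet, by 0.26 (0.10 to 0.42). Plin4 of the same family had the opposite sign, -0.74 (-0.93 to -0.56), and lost its call under quantile normalization between mice (-0.24, adjusted p 0.267).

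Fatty acid uptake and synthesis were mixed. Of 23 genes of uptake and activation 10 rose and none fell, and 11 rose and 2 fell without replicate 3. The transporter Slc27a1 differed by 0.81 (0.59 to 1.04), whereas the scavenger receptor Cd36, which takes up fatty acids, differed by -0.11 (-0.29 to 0.07, adjusted p 0.313). Lipoprotein lipase (Lpl) differed by -0.14 (-0.29 to 0.02, adjusted p 0.126) and the binding protein Fabp4 by 0.34 (0.21 to 0.47), read from spots with a saturated channel on all 12 arrays of each dose. Of 20 genes of fatty acid synthesis 8 rose and 3 fell, close to the shares over all genes. Acaca, which makes malonyl-CoA, differed by 0.70 (0.38 to 1.02) and was above the pool at both doses, between 1.0 and 1.86 at 280 µmol/kg and between 0.34 and 0.99 at 28 µmol/kg. Its call was lost under quantile normalization between mice (0.27, adjusted p 0.171). Fasn differed by 0.17 (-0.09 to 0.44, adjusted p 0.269) and Acly, which makes cytosolic acetyl-CoA, by 0.26 (-0.20 to 0.71, adjusted p 0.333), both well above the pool at both doses, and both with the opposite sign under that normalization. The spots of Fasn were saturated on 6 of 12 arrays of each dose and those of Lpl on 11 at 280 µmol/kg and on 12 at 28 µmol/kg. The desaturase Scd1 fell by 0.62, with its spot saturated on 2 of 12 arrays at 280 µmol/kg and on 7 of 12 at 28 µmol/kg. In the pentose phosphate pathway, which supplies NADPH, 4 of 8 genes rose and none fell, Pgls by 0.59 (0.48 to 0.71).

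The adipocyte markers served to check the tissue: all 16 were above background on at least 50% of arrays at 280 µmol/kg and 15 at 28 µmol/kg. Of the 16, 11 rose and 2 fell (median 0.31). Adiponectin (Adipoq), an insulin-sensitising hormone of fat, ran between 0.83 and 1.28 at 280 µmol/kg (median 1.03) and between 0.26 and 0.76 at 28 µmol/kg (median 0.60), a difference of 0.51 (0.27 to 0.76, adjusted p 0.00267). Under quantile normalization between mice this difference was 0.12 (adjusted p 0.572). The insulin-responsive glucose transporter Slc2a4 differed by 0.51 (0.34 to 0.68). Adipsin (Cfd), a complement protease made by adipocytes, went the other way, between -2.88 and -2.25 at 280 µmol/kg and between -1.32 and -0.66 at 28 µmol/kg, and resistin (Retn) differed by -0.49 (-0.68 to -0.31), a call that was lost under the same normalization (adjusted p 0.249). Leptin (Lep) differed by -0.29 (-0.59 to 0.02, adjusted p 0.109), which did not pass.

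Secreted factors as a group were lower: 12 of 22 fell and 5 rose, with a median of -0.47. Besides Hp and Cfd, those that fell included the retinol carrier Rbp4 by 1.38, lipocalin Lcn2 by 1.78 and the acute-phase protein Saa3 by 1.17, chosen after their values were seen. Fgf21, a hormone of energy balance, rose and ran between 1.2 and 1.8 at 280 µmol/kg (median 1.36) and between -0.16 and 0.42 at 28 µmol/kg (median 0.04), a difference of 1.32 (1.06 to 1.58). Angptl4, an inhibitor of lipoprotein lipase and a known PPAR target, differed by 0.41 (0.08 to 0.75, adjusted p 0.0423), and its call was lost in most alternatives, among them the fits without S 28 replicate 1, 3, 4, 5 or 6 or S 280 replicate 2, 4, 5 or 6. The count of secreted factors that rose was 3 when any of replicates 1, 3, 4 and 6 at 28 µmol/kg or 4, 5 and 6 at 280 µmol/kg was left out.

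Connective tissue genes fell together. Of 38 collagens and matrix genes 27 fell and none rose (71.1%, against 22.1% of all genes), with a median of -0.67. Lox, which cross-links collagen, ran between -1.43 and -1.04 at 280 µmol/kg and between -0.10 and 0.13 at 28 µmol/kg, a difference of -1.23 (-1.39 to -1.07). Col1a1, the main chain of type I collagen, ran between -0.90 and -0.27 at 280 µmol/kg and between -0.04 and 0.78 at 28 µmol/kg, a difference of -1.02 (-1.33 to -0.71). Of 18 preadipocyte and fibroblast markers 13 fell and none rose (median -0.61). Decorin (Dcn), a matrix proteoglycan of fibroblasts, differed by -1.32 (-1.5 to -1.13). Of 15 pericyte and smooth muscle markers 9 fell (median -0.62), led by Rgs5, a pericyte regulator of G protein signalling, which ran between -2.28 and -1.55 at 280 µmol/kg and between -0.19 and 0.38 at 28 µmol/kg. Of 23 endothelial markers 14 fell and 1 rose (median -0.34), with Plvap, of the capillary wall, at -0.64 (-0.77 to -0.50). The 1 that rose, the lymphatic factor Prox1, stood above background on 8 of 12 arrays at 280 µmol/kg and on 1 of 12 at 28 µmol/kg, its other probe had the opposite sign, and its difference of 0.75 was 0.22 with normexp background correction. These are whole pieces of fat, in which fewer cells of a type and less RNA per cell cannot be told apart.

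Most of the immune lists had more members lower than higher. Of 31 chemokines and cytokines 16 fell and none rose (median -0.66). Every S 280 mouse lay below every S 28 mouse in 4 of the 31. Their mean per mouse ran between -0.92 and 0.01 at 280 µmol/kg and between -0.28 and 0.53 at 28 µmol/kg. S 280 replicates 4, 5 and 6 lay within the range of the S 28 mice. Ccr2, the receptor that draws monocytes into tissue, ran between -1.14 and -0.65 at 280 µmol/kg and between -0.10 and 0.64 at 28 µmol/kg, a difference of -1.16 (-1.45 to -0.86). Of 25 macrophage markers 10 fell and none rose (median -0.31), with Cd163, a haemoglobin scavenger of tissue macrophages, at -0.64 (-0.91 to -0.36). The doses separated in 5 of the 25. The mean per mouse ran between -0.76 and -0.02 at 280 µmol/kg and between -0.23 and 0.25 at 28 µmol/kg, and the same S 280 replicates lay within the S 28 range. The general marker Adgre1 (F4/80) differed by -0.06 (-0.52 to 0.39, adjusted p 0.829) and its sign turned when S 280 replicate 2 (0.10) or S 28 replicate 4 (0.01) was left out. Of 17 genes of antigen presentation 9 fell and none rose (median -0.48), and of 12 neutrophil and mast cell markers 5 fell, Camp among them (median -0.61). The means per mouse of both lists also overlapped between the doses. Irf8, a factor of the monocyte lineage, fell by 1.03.

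Markers of other cells than those of fat varied from mouse to mouse. Of 25 epithelial and skin markers on the array, 21 were above background on at least 50% of arrays at 280 µmol/kg and 24 at 28 µmol/kg. Their mean log2 ratio ran between -3.07 and 0.07 at 280 µmol/kg and between -2.87 and -0.50 at 28 µmol/kg. At 280 µmol/kg the 0.07 was replicate 3, with the next mouse at -1.70, and at 28 µmol/kg replicates 4 and 5 were highest, at -0.50 and -0.59. Over 24 measured genes the median difference was -0.21, with 1 higher and none lower, and -0.81, with 1 higher and 3 lower, without replicate 3. The 1 higher gene was the milk protein Csn3, at 1.69 in replicate 3 and between 0.22 and 0.60 in the other S 280 mice, against -0.02 to 0.27 at 28 µmol/kg. The call of Csn3 was lost in 12 of 26 alternatives, among them the fits without S 28 replicate 2, 3, 4, 5 or 6 or S 280 replicate 2 or 5 (adjusted p up to 0.115). The same mouse held the high values of Scel and Car12. All 26 skeletal muscle markers were above background at both doses, and their mean ran between -4.03 and -1.11 at 280 µmol/kg and between -2.52 and 0.48 at 28 µmol/kg, overlapping. Their median difference was -1.59, with 9 of 26 called lower, and the count depended on single mice: it was 0 without S 28 replicate 4 or S 280 replicate 4 or 5, 1 without S 28 replicate 3 or 6 or S 280 replicate 3, 4 without S 28 replicate 1, 5 without S 280 replicate 2, 15 without S 280 replicate 6, 19 without S 28 replicate 2 or S 280 replicate 1 and 20 without S 28 replicate 5. Cox6a2, Ckmt2, Cox7a1 and Cpt1b are also expressed in muscle. Cox6a2 and Ckmt2 had negative differences and Cox7a1 and Cpt1b positive ones, and the part of muscle in these values was not tested.

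**Figure D4:**
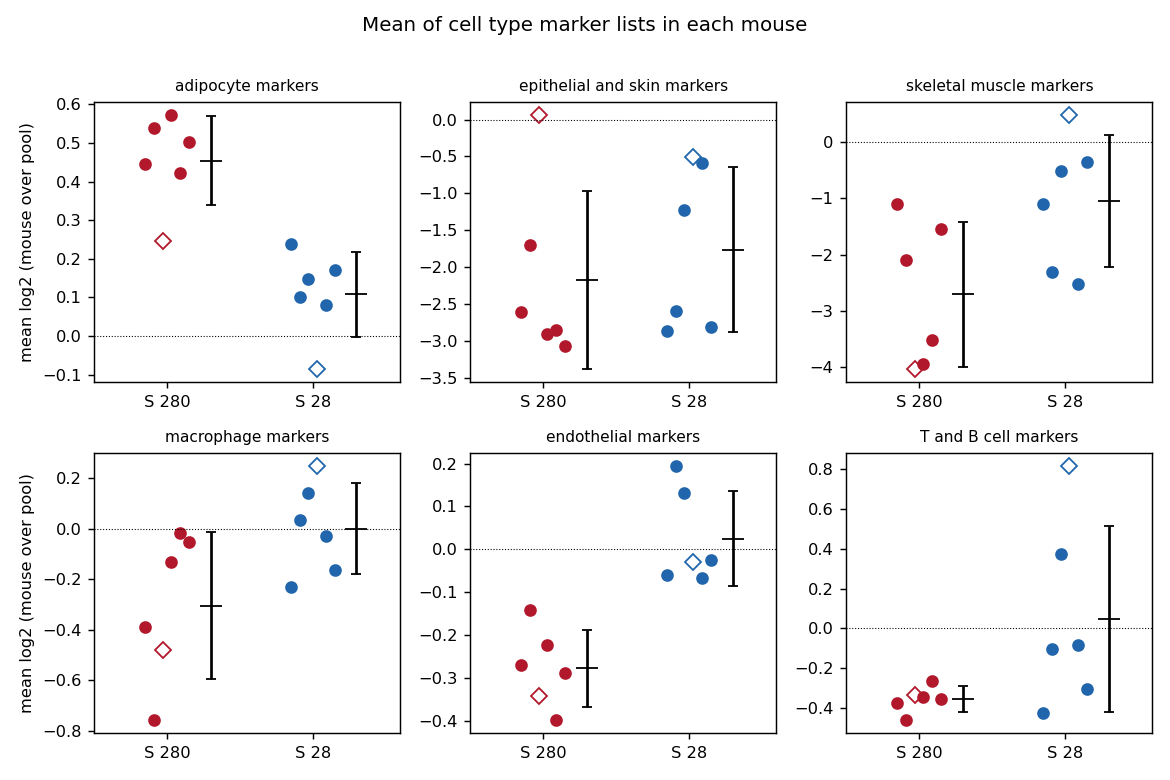
Mean log2 ratio to the pool over marker genes of adipocytes and of other cells, 1 point per mouse, with S 280 in red left of S 28 in blue (n = 6 each) and the mean ± SD as bars. The mouse with the highest epithelial mean in each group, S 280 replicate 3 at 0.07 and S 28 replicate 4 at -0.50, is drawn as an open diamond.

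The calls over the lists without replicate 3 stand against 30.5% of all genes higher and 22.4% lower in that fit. With both mice of highest epithelial mean left out, 1 from each dose, 13127 of 29153 sequences differed (45.0%), 7973 higher and 5154 lower. β-oxidation then still had 21 of 22 genes higher, the citrate cycle 17 of 19, complex I 37 of 37 and the mitochondrial ribosome 37 of 37, and 26 of 38 collagen and matrix genes, 13 of 18 fibroblast markers and 8 of 25 macrophage markers were lower. Thermogenic genes had 12 of 21 higher. Both mice were chosen after their values were seen. In the comparison of all 12 mice, 4 of 11 nerve and Schwann cell markers fell and 1 rose (median -0.02), and none of 5 red blood cell genes passed (median -0.18).

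Quantile normalization between mice, which gives every mouse the same distribution of log2 ratios, made most of these differences smaller. Of the 104 named genes, 38 shrank by more than 1.5 times and 14 lost their call, where 5783 of 29153 sequences were higher and 4039 lower. Ucp1 then differed by 1.41, Elovl3 by 0.93 and Gk by 0.97. Complex I kept 37 of 37 genes higher, the citrate cycle 17 of 19 (median 0.49), complexes III to V 34 of 38 (median 0.46) and β-oxidation 19 of 22 (median 0.49). The mitochondrial ribosome had 28 of 37 higher (median 0.23), peroxisomal and omega oxidation 12 of 24 (median 0.24), branched-chain amino acid breakdown 9 of 20 (median 0.13) and fatty acid uptake and activation 5 of 23. Triglyceride synthesis had a median of 0.14, fatty acid synthesis 5 higher and 4 lower (median 0.01), and the pentose phosphate pathway 3 higher and 3 lower. Collagens and matrix genes had 25 of 38 lower, chemokines and cytokines 10 of 31 and macrophage markers 5 of 25. Pericyte and smooth muscle markers had 5 lower and 3 higher (median -0.21), and no skeletal muscle marker was called. With normexp background correction the median of the thermogenic genes was 0.58, of lipolysis 0.31 and of chemokines and cytokines -0.44.

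The middle dose lay between. Over the 4585 genes that rose, the mean at 84 µmol/kg was between those of the other doses in 4261 (92.9%), and nearer to 28 than to 280 µmol/kg in 87.1% of the 4585. Over the 3483 that fell it was between in 3122 (89.6%) and nearer to 28 µmol/kg in 80.1%. Since the genes were chosen for the outer doses, these shares are a description. Every mouse at 84 µmol/kg was scanned on the same day as replicates 5 and 6 at 28 µmol/kg. No mouse at 280 µmol/kg was scanned that day, and the part of scan day in this order was not tested. All 12 highest and all 12 lowest genes had the middle dose between. Ucp1 averaged 1.23 ± 0.23 at 28, 1.96 ± 0.18 at 84 and 3.36 ± 0.21 at 280 µmol/kg (SD, n = 6 each), and Hp averaged -0.22 ± 0.23, -0.92 ± 0.33 and -2.97 ± 0.12 at these doses. Sptlc3 came nearer to an even spacing, with 1.63 ± 0.38, 3.33 ± 0.34 and 4.70 ± 0.19. Pparg averaged 0.19 ± 0.15, 0.15 ± 0.22 and 0.14 ± 0.19.

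**Figure D5:**
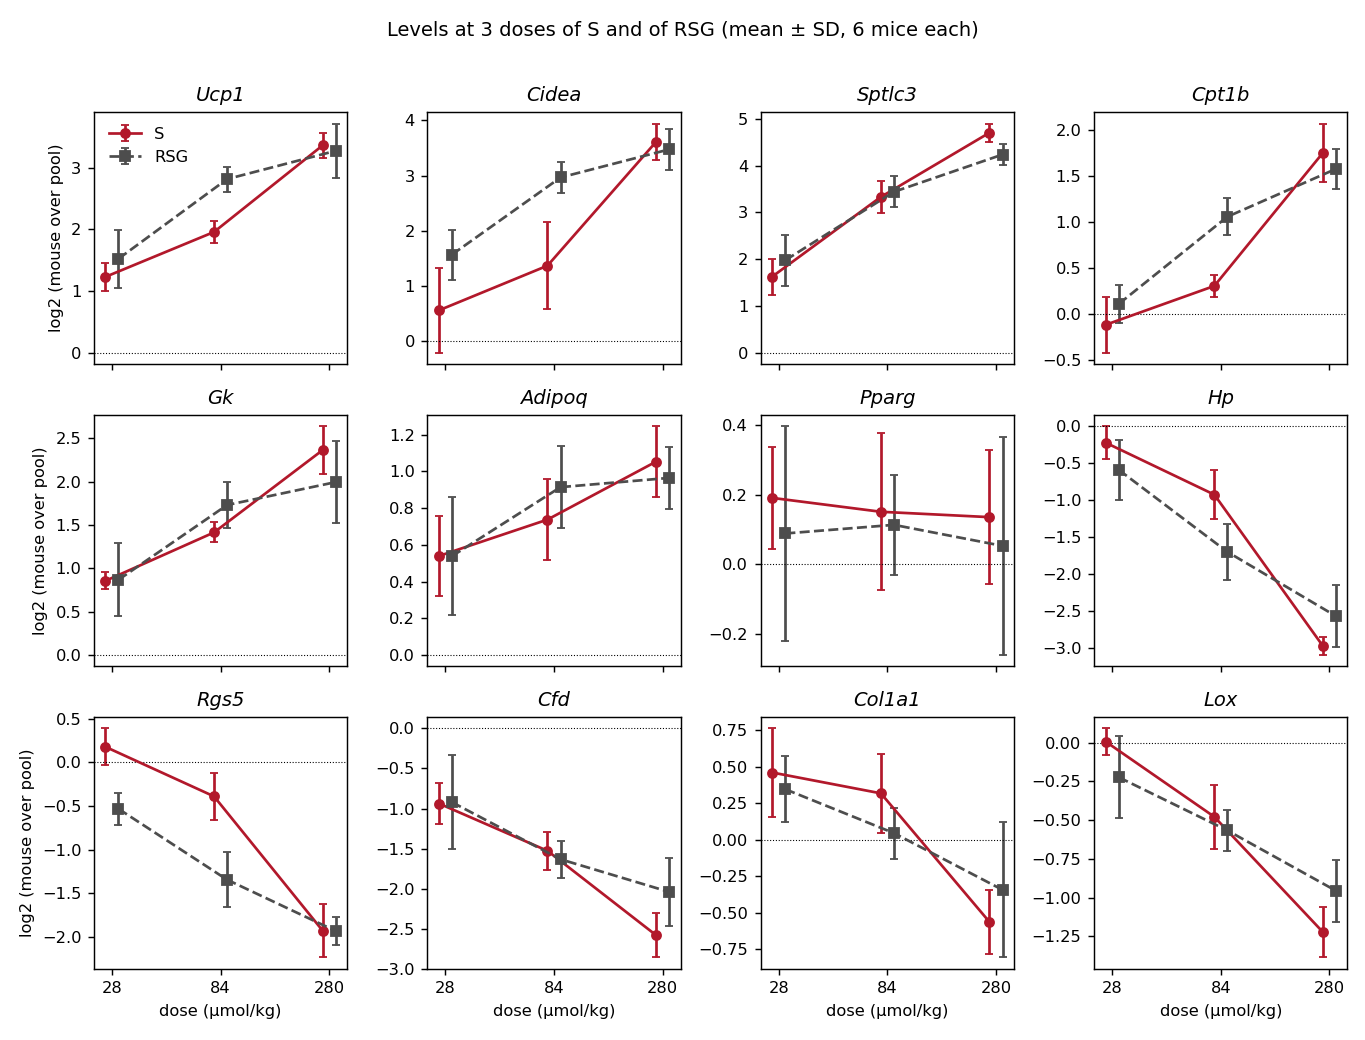
Mean log2 ratio to the pool against dose (28, 84 and 280 µmol/kg, drawn at even steps) for 12 named genes, S in red with a solid line and RSG in grey with a dashed line; bars are SD over 6 mice. Ucp1 under S climbs through 1.23, 1.96 and 3.36 and Hp descends through -0.22, -0.92 and -2.97.

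The same difference between doses was set against that of RSG, a thiazolidinedione that activates PPARγ, at the same molar doses (6 mice each). No slide and no scan day held RSG mice of both doses, so slide, scan day and dose cannot be told apart for RSG either. Of 30409 sequences none had a dose difference of S that departed from that of RSG at an adjusted p under 0.05 (0%, limma), with 2154 at an unadjusted p under 0.05 and a smallest adjusted p of 0.226. With array quality weights 150 sequences passed (118 higher, 32 lower). RSG 28 replicate 5 had an epithelial and skin mean of 1.15, with the others of its group between -2.81 and -0.22. Without it none passed, and 3206 had an unadjusted p under 0.05. The lack of calls in the main fit does not show that the compounds act alike, and the intervals give what remains possible. Ucp1 differed between the doses by 2.13 under S and 1.75 under RSG, and the S minus RSG difference was 0.38 with an interval of -0.20 to 0.96. For Sptlc3 the dose differences were 3.08 under S and 2.26 under RSG (0.82, interval 0.22 to 1.41, adjusted p 0.641), and for Ephx2 2.28 under S and 1.59 under RSG (0.69, 0.36 to 1.01, adjusted p 0.285). Mbnl3 differed by 2.78 under S and 1.59 under RSG (1.19, 0.67 to 1.71, adjusted p 0.278). On the low side Hp differed by -2.75 under S and -1.98 under RSG (-0.77, -1.29 to -0.25, adjusted p 0.584), and Rgs5 by -2.10 under S and -1.40 under RSG (-0.70, -1.07 to -0.34, adjusted p 0.393). The intervals of these last 5 genes exclude 0 one at a time and none of them passed after adjustment over all sequences. The dose difference under S, by which these genes were named, is part of this contrast, so their intervals are a description. For Pparg the values were -0.06 under S and -0.04 under RSG (-0.02, -0.43 to 0.39).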

How the data were processed

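IAT RNA of 12 db/db mice dosed with the S compound (6 at 280 and 6 at 28 µmol/kg) was analysed on 24 arrays, with 6 S mice at 84 µmol/kg and the RSG mice of the same tissue for comparison. The labels do not say how the mice were housed or sampled beyond naming them biological replicates. The authors scanned 2-colour Agilent whole mouse genome arrays with Feature Extraction 9.5.3.1 (9.5 in the submitters' processing notes), which corrected the ratios for background and dye. The study's methods name local background subtraction and a local Lowess dye correction. The deposited ratio is a log10 value of red over green per spot. The deposited signals are linear intensity values from the same software, beside marks for saturated, uneven and clearly bright spots. A deposited table of 1 log10 ratio per probe and sample served as an alternative only.

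Each log10 ratio was turned to treated over pool by the dyes in the labels, written as log2, and averaged over the dye-swap pair and over the spots of a probe. Control spots and outlier spots were left out. Sequences were tested if the treated channel cleared background by the software's mark on 50% or more of the 12 arrays of either dose. The difference S 280 minus S 28 was fitted with limma 3.58.1 in R 4.3.3, with Benjamini-Hochberg adjustment and a call at an adjusted p under 0.05. P-values measure the spread between these mice. They take the mice as independent, though most shared a slide with another mouse of their dose. The correlation between mice of a slide, over all sequences, was 0.456. Of 41174 probes, 23374 were named by RefSeq accession (4830 with a changed symbol), 6733 by symbol and 2919 by synonym, and 8148 kept the name in the file. A gene was represented by its brightest probe. In the deposited table the columns of S 280 replicates 4, 5 and 6 hold the values of the arrays of replicates 6, 4 and 5 and the column of S 84 replicate 6 follows no array of its own (correlation 0.0485), so it was used for the group difference and for no single mouse. Which assignment is right is not known, and values of single mice are those of the scanner files as labelled.

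Genes named in the text are the 12 highest and 12 lowest among those called with and without S 280 replicate 3, the gene with the smallest p in each direction of each of 41 lists, and genes the study is about. Some genes of the rule are not reported here, and a gene outside it is marked. The comparison, the lists and the naming rule were chosen with earlier results of these data known. Alternatives left out each mouse, changed the normalization, filter, background and weights, or set scan day, slide or replicate number as a block. Plots were made in Python 3.11.15 with matplotlib 3.10.9.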

Additional observations from a re-analysis of the deposited data

Results flagged for a closer look

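In 302 sets of 6 mice (a gene named in the text or the mean of a list, at 1 dose), 17 had a mouse far from the other 5, its gap to the nearest of them divided by the range of the group, being over the 95% critical value of Dixon's test. Chance alone would give about 1 in 20, which is close to the share found. A gene and the mean of a list that holds it count as separate sets here. All values are log2 ratios to the pool.

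Of these values, 5 belonged to S 280 replicate 5 and were the highest of their group: Idh3a at 1.56, with the others between 1.24 and 1.36, Pgam1 at 1.5 (1.05 to 1.19), and the list means of mitochondrial β-oxidation at 1.32 (0.87 to 1.02), the citrate cycle at 1.11 (0.73 to 0.84) and pyruvate dehydrogenase and its kinases at 0.888 (0.44 to 0.59). All of these are mitochondrial lists or genes except Pgam1, a glycolytic enzyme.

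S 280 replicate 3 was the highest of its group in 4 sets: Scel at 0.271, with the others between -4.11 and -2.59, Car12 at 0.625 (-3.42 to -2.87), the milk protein Csn3 at 1.69 (0.22 to 0.60) and the mean of the immediate early genes at 0.26 (-0.52 to -0.23). It also had the highest mean of the epithelial and skin markers, 0.07.

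At 28 µmol/kg, replicate 4 was lowest for Plin4 at -0.721 (others -0.41 to -0.28), Retn at -0.492 (-0.19 to -0.02) and the mean of lipolysis at -0.05 (0.13 to 0.24), all adipocyte genes. Replicate 5 was highest for Cidea at 1.98 (-0.11 to 0.67) and for the mean of cholesterol synthesis at 0.534 (0.02 to 0.13). Single values stood apart in 3 further sets: Dkk3 at -2.49 in S 280 replicate 6 (-3.30 to -3.02), Hp at -1.57 in S 84 replicate 6 (-0.96 to -0.68), whose column in the deposited table follows no array, and Adipoq at 0.298 in S 84 replicate 5 (0.76 to 0.91).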

How the results depend on the processing

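The count of sequences that differed between the doses (13744) lay within 1.5 times of itself in all alternatives. Leaving out 1 mouse gave 11976 (without S 28 replicate 3) to 14271, and quantile normalization between mice 9822 (7590 of them shared). Slide as a random block gave 10376, with a correlation of 0.456 between mice of a slide. Scan day as a random block gave 17015, with a negative correlation of -0.107 between mice of a day. Centring each array on its median gave 7423 higher and 6206 lower, so that 54.5% of calls were higher, against 61.2% without it. No slide or day held both doses, so a fixed block could not be fitted.

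The contrast of S with RSG, 0 sequences, was 150 (118 higher, 32 lower) with array quality weights, 2 (1 higher, 1 lower) with the replicate number as a block, and 0 to 1 with 1 mouse left out (0 to 1 higher, 0 to 1 lower). Counts at an unadjusted p under 0.05 ran between 1287 and 6196. The cause was not tested.

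Same-numbered mice of the 2 doses deviated together with correlations between -0.44 and 0.35, and 1 of 6 correlated best with its own number, so the numbers do not pair the mice. With the replicate block 12486 sequences differed.

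Of 104 named genes, 80 kept direction and side of the threshold in the 25 or 26 alternatives that gave them a value, 20 lost or gained a call in at least 1, and 5 changed sign. Under quantile normalization these were Acly (-0.25), Fasn (-0.49), Nr1d1 (0.15) and Pdk3 (0.042), with the median of the circadian list (0.10). Adgre1 ran between -0.16 and 0.10 with 1 mouse left out, being 0.0052 without S 28 replicate 4, 0.10 without S 280 replicate 2, and 0.051 without the mouse of highest epithelial mean in each dose, which was chosen after seeing the data, as was the slide block. With normexp background correction 19 of the 104 differences shrank by more than 1.5 times, 13 of them in genes above background on under 9 of 12 arrays of a dose, and 4 lost their call.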

Other observations

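Several gene groups had members called in both directions between 280 and 28 µmol/kg. Of 32 genes of oxidative stress defence 16 rose and 8 fell (median 0.19): Sod1, the cytosolic superoxide dismutase, rose by 0.75 (0.57 to 0.92), and Gstm2, a glutathione transferase, fell and ran between -1.44 and -1.18 at 280 µmol/kg and between -0.27 and -0.11 at 28 µmol/kg. The count that fell was 4 without S 280 replicate 3 and 5 without S 280 replicate 2 or S 28 replicate 1, 2, 3 or 4. Of 24 sphingolipid genes 6 rose and 8 fell (median -0.01), with Sptlc3 at 3.08 the highest and the ceramide synthase Cers6 lower by 0.94. Of 28 cell cycle genes 15 fell (53.6%, against 22.1% of all genes) and 5 rose (median -0.21), and 4 fell and 3 rose under quantile normalization between mice (median -0.05). Among these cell cycle genes were the inhibitor Cdkn1a, which rose by 1.06 (0.87 to 1.25), and the mitotic kinase Aurkb, which fell by 0.47 and lost its call under that normalization (adjusted p 0.0812). Of 27 genes of endoplasmic reticulum stress 12 fell (44.4%) and 4 rose (median -0.10), Dnajb9, a chaperone partner, by 0.64.

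Of 24 glycolysis genes 8 rose and 4 fell, with phosphoglycerate mutase Pgam1 higher by 0.81 (0.67 to 0.96) and the phosphofructokinase Pfkp lower by 0.75. The count that fell was 1 without S 28 replicate 3, 4 or 6 or S 280 replicate 4, and 2 without S 28 replicate 1 or S 280 replicate 2 or 5. Of 19 insulin signalling genes 6 rose and 5 fell, with Irs3, a receptor substrate of rodent fat, at 0.87 (0.61 to 1.13) and the inhibitory adaptor Grb14 at -0.99 (-1.25 to -0.73). The count that fell was 3 without S 28 replicate 5 or S 280 replicate 1. Of 24 cholesterol synthesis genes 5 rose and 4 fell, and 4 rose and 10 fell without S 280 replicate 3. Insig1, which holds back the synthesis programme, rose by 1.10 (0.92 to 1.28) and Ebp, a sterol isomerase, fell by 0.35.

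Of 19 clock genes 6 fell and 2 rose (median -0.16, and 0.10 under quantile normalization). The count that fell was 2 without S 28 replicate 4 and 3 without S 28 replicate 5 or 6 or S 280 replicate 2 or 6. Of 19 immediate early genes 6 fell, Fosl2 by 0.70, and 3 without S 28 replicate 3 or 4 or S 280 replicate 2. Of 26 interferon-induced genes 3 rose and 2 fell, and 5 rose without S 28 replicate 2. Ifi27 rose by 0.47. Of 17 T and B cell markers 3 fell and 1, Cd4, rose by 0.22, with 1 lower without S 28 replicate 3 or S 280 replicate 2 or 4, 5 lower without S 28 replicate 6 and 6 lower without S 28 replicate 1.

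Among probes without a gene name, AK080254 had a difference of 3.32, 4930474A20Rik of 3.12 and D630014O11Rik of 2.77, and the lowest was BC028808 at -1.75. The differences of AK080254 and 4930474A20Rik were above that of Sptlc3, and that of D630014O11Rik lay between those of Sptlc3 and Ucp1. That of BC028808 was smaller in size than either.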
